A study of Mus musculus with 20 samples.

Results

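Hearts of 3 MuRF1 -/- mice were compared with hearts of 3 MuRF1 +/+ mice after 8 weeks on a diet with 0.05% fenofibrate, which makes 6 of the 20 hearts in the series. They were taken by title, as the hearts of each genotype labelled for 8 weeks of the drug. The other hearts were 3 per genotype after 8 weeks of chow without the drug and 4 per genotype after 3 weeks of 0.05% fenofibrate, and they enter the fit, where they share in the estimate of the spread, and give the values set beside those at 8 weeks. The labels describe the groups as strain-matched and give neither the sex nor the strain of the heart donors, and they give weeks both as an age and as time on the diet. The sources used here do not say what part of the gene the MuRF1 -/- allele lacks, or in which cells. Each array held the RNA of 1 heart in the red Cy5 channel and a pool of whole C57BL/6 newborn pups in the green Cy3 channel. A level below is therefore a log2 ratio of heart over newborn reference, and a difference is MuRF1 -/- minus MuRF1 +/+ on that log2 scale. The series asks how MuRF1 bears on the heart growth seen with fenofibrate.

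MuRF1, encoded by Trim63, is a RING-type ubiquitin ligase of striated muscle that sits at the M-line of the sarcomere and marks muscle proteins for breakdown by the proteasome. Fenofibrate activates PPAR alpha, a nuclear receptor that pairs with RXR and raises genes of fatty acid uptake and oxidation in heart and liver. FOXO factors, which switch on Trim63 in wasting muscle, and myogenic factors, which bind E-boxes, are the best known inputs to the Trim63 promoter.

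Trim63 and Klhl31 were the called genes with the largest differences in each direction, and both passed the test on all 3 diets, so their promoters are shown for comparison. Both sequences come from RefSeq (build GRCm38.p6), run 5′ to 3′ on the plus strand and span 250 bases before to 50 bases after the start of the gene. The Trim63 window is chr4:134314870-134315169 and the Klhl31 window is chr9:77636482-77636781. Capitals mark matches, on either strand, to the FOXO element TGTTTAC or the E-box CAGCTG.
Trim63: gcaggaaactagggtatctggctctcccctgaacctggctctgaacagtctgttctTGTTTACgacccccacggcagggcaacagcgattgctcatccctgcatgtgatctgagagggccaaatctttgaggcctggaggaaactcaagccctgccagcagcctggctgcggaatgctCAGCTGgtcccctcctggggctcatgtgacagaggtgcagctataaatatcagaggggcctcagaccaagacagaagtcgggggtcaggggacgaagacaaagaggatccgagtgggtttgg
Klhl31: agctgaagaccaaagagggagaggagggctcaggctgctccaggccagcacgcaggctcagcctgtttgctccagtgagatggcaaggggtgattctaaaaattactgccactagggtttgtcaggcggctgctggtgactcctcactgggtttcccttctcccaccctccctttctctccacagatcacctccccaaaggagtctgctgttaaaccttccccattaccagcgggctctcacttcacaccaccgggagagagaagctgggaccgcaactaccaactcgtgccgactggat
In the Trim63 window the FOXO element began 194 bases and the E-box 72 bases before the start of the gene. Of 32851 RefSeq mouse promoters of this length, 3.65% held the FOXO element and 16.3% held the E-box. The Klhl31 window held neither in these letters. The element that PPAR alpha with RXR binds, here 2 copies of AGGTCA in a row with 1 base between them, was in neither window and in 0.0396% of all promoters, again on either strand.

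The 6 hearts did not vary equally, and this bears on every result. MuRF1 +/+ replicate 2 stood apart, with correlations of 0.773 to 0.850 to the other 8-week hearts, against 0.947 to 0.986 among those others. Its array also had the lowest share of heart probes well above background, 34.0% against 36.9% to 43.0% on the other 8-week arrays. The median SD between replicates was 0.18 in the MuRF1 +/+ group and 0.12 without that heart, against 0.08 in the MuRF1 -/- group. The Y-linked transcripts Ddx3y and Eif2s3y were well above background in MuRF1 -/- replicates 1 and 3 and in none of the other 4 hearts. Ddx3y read 1.47, -0.68 and 1.30 in the MuRF1 -/- hearts and -0.76, -0.62 and -0.41 in the MuRF1 +/+ hearts. Xist, which coats the silenced X chromosome in females, was measured at -3.51, -2.72 and -4.05 in MuRF1 -/- and at -2.70, -0.90 and -2.04 in MuRF1 +/+ hearts. Genotype and Y-linked signal were therefore partly confounded, since only MuRF1 -/- replicate 2 shared its Y-linked level with the MuRF1 +/+ hearts. Replicate 1 of both genotypes shared one slide and replicate 3 of both shared another, so differences could also be read within a slide. The cardiomyocyte markers, all 12 of them measured, averaged 2.41 to 2.89 in each of the 6 hearts.

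Between the genotypes, 52 of 14572 tested genes differed at 8 weeks, 27 of them higher and 25 lower in MuRF1 -/- hearts (limma, Benjamini-Hochberg adjusted p under 0.05). That is 0.357% of the genes tested, 0.185% higher and 0.172% lower, while 3247 genes had an unadjusted p under 0.05. The called differences ran from 0.34 to 3.0 in size, with a median of 0.72. In all 52 called genes the 2 groups of 3 hearts did not overlap, which was also so in 19.3% of the 14354 genes measured on every 8-week array. MuRF1 +/+ replicate 2 was the MuRF1 +/+ heart farthest from the MuRF1 -/- mean in 38 of the 52 genes, against 66.5% of all genes. The number of calls moved with single hearts. It was 19 without MuRF1 +/+ replicate 2, 3189 without MuRF1 +/+ replicate 1 and 319 without MuRF1 +/+ replicate 3. Leaving out MuRF1 -/- replicates 1, 2 or 3 gave 5, 24 or 4 calls. With the level of Ddx3y and Eif2s3y as a covariate, 2 of the 52 calls remained, Trim63 and Klhl31. All 52 called differences kept their sign. Among the calls lost there, Serinc3 (-1.34 ± 0.19 without and -1.33 ± 0.25 with the covariate) and Efnb3 (1.16 ± 0.18 and 1.16 ± 0.25) changed little. Rrp7a was smaller (1.19 ± 0.22 and 0.86 ± 0.26) and Alas1 larger (0.58 ± 0.11 and 0.74 ± 0.13), and the SE of each grew. With only the 2 groups in the fit none of the 52 calls remained, so the calls rest on the spread estimated over all 20 hearts.

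**Figure D1:**
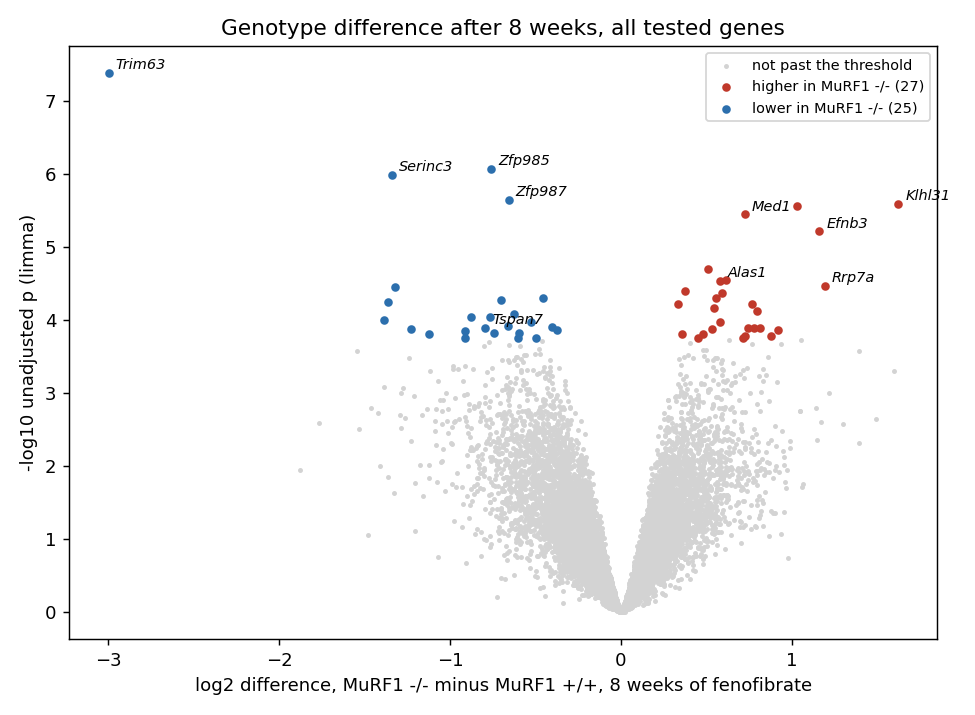
Each point is 1 of the tested genes, with the log2 difference MuRF1 -/- minus MuRF1 +/+ after 8 weeks of fenofibrate on the x axis and -log10 of the unadjusted limma p on the y axis. Red points are the 27 genes called higher, blue points the 25 called lower, and the 10 named genes also passed without MuRF1 +/+ replicate 2; Trim63 lies far to the left at -3.0.

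Of the 52 genes, 11 also passed without MuRF1 +/+ replicate 2, and 10 of them are described first. These were Trim63, Serinc3, Tspan7, Zfp985 and Zfp987, which fell, and Klhl31, Efnb3, Rrp7a, Med1 and Alas1, which rose. With slide as a block, Efnb3, Alas1, Rrp7a and Tspan7 missed the threshold (limma adjusted p = 0.0574, 0.0705, 0.0922 and 0.151). Trim63 itself was at -0.95, -0.98 and -1.0 in the MuRF1 -/- hearts and at 2.85, 0.79 and 2.41 in the MuRF1 +/+ hearts. The groups were far apart, and the lowest MuRF1 +/+ value was that of replicate 2. The SD between hearts was 1.08 in the MuRF1 +/+ and 0.03 in the MuRF1 -/- group. Each SE of a difference, here and for the other genes, takes its spread from the hearts of all diets in the fit. It therefore does not describe the unequal spread of the groups compared. The difference was -3.0 ± 0.33 (SE, n = 3 and 3, adjusted p = 0.000594), or 7.99-fold lower. Without replicate 2 the difference was -3.61 ± 0.19. On chow it was -3.51 and at 3 weeks -3.51. The call was lost with only the 2 groups in the fit (adjusted p = 0.486) and without MuRF1 -/- replicates 1 and 3 (adjusted p = 0.218), at differences of -3.0 in both. The sources used here do not place the probe within or outside the deletion. Its signal stayed well above background on all 10 MuRF1 -/- arrays of the series, so it checks the labels only as far as signal fell. A second, dimmer Trim63 probe was above background on 9 of the 10 MuRF1 +/+ arrays and on 0 of the 10 MuRF1 -/- arrays of the series, so it gives only a bound and no difference is printed for it.

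Of 23 measured muscle ubiquitin ligases and MuRF relatives, Trim63 among them, Trim63 and 1 other gene passed, against 0.357% of all tested genes. The other gene was Klhl31, a kelch-repeat protein of striated muscle whose family supplies substrate adaptors to cullin-3 ligases. Klhl31 stood at 1.47, 1.95 and 1.40 in MuRF1 -/- and at -0.23, 0.08 and 0.11 in MuRF1 +/+ hearts. Every MuRF1 -/- heart was above every MuRF1 +/+ heart, by 1.62 ± 0.24 (SE, n = 3 and 3, adjusted p = 0.00656), 3.08-fold. A second Klhl31 probe differed by 0.26 (adjusted p = 0.252), so the size rests on the brighter probe. The 2 closest relatives of MuRF1 did not pass. Trim55, which encodes MuRF2, read -1.20, -1.35 and -1.40 against -0.90, 0.31 and -0.94, a difference of -0.81 ± 0.22 (adjusted p = 0.0838) that was -0.40 without replicate 2. Trim54, which encodes MuRF3, read 2.89, 2.84 and 2.75 against 2.62, 4.05 and 3.1, a difference of -0.43 ± 0.26 (adjusted p = 0.324).

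Med1 and Alas1 link to nuclear receptors and heme. Med1 is the Mediator subunit that nuclear receptors, PPAR alpha among them, contact through its LXXLL motifs. It stood at 0.55, 0.38 and 0.43 in MuRF1 -/- and at -0.52, 0.04 and -0.34 in MuRF1 +/+ hearts, 0.72 ± 0.11 higher (SE, n = 3 and 3, adjusted p = 0.00738). The groups were separate, but 2 other Med1 probes differed by only 0.05 and 0.12, with adjusted p-values of 0.770 and 0.534. Alas1, which makes the first committed intermediate of heme, was at 0.33, 0.52 and 0.21 against -0.22, -0.16 and -0.31. It rose by 0.58 ± 0.11 (adjusted p = 0.0381), and a second Alas1 probe gave 0.66 (adjusted p = 0.0699).

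Efnb3 and Serinc3 encode proteins of the cell membrane. Efnb3, the ephrin-B3 ligand of Eph receptors, was at 1.37, 1.18 and 1.52 in MuRF1 -/- and at 0.44, -0.06 and 0.21 in MuRF1 +/+ hearts. All MuRF1 -/- hearts were higher, by 1.16 ± 0.18 (SE, n = 3 and 3, adjusted p = 0.0109). Serinc3, a multi-pass protein of the serine incorporator family, was at -0.54, -0.35 and -0.56 against 0.55, 1.28 and 0.75. It fell by 1.34 ± 0.19 on the log2 scale (adjusted p = 0.00491), and a second probe of the gene fell by 0.90 (adjusted p = 0.00869). The remaining Serinc3 probe differed by -0.68 (adjusted p = 0.0703), so all 3 had the same sign. Tspan7, an X-linked tetraspanin, was at -0.46, -0.39 and -0.45 against 0.04, 0.97 and 0.06, a fall of 0.80 ± 0.16 (adjusted p = 0.0490) that was -0.49 without replicate 2.

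Rrp7a, a factor of ribosomal RNA processing, stood at 0.52, 0.39 and 0.91 in MuRF1 -/- and at -0.76, -0.42 and -0.58 in MuRF1 +/+ hearts. The gap between the groups was wider than the range within either, and the difference was 1.19 ± 0.22 (SE, n = 3 and 3, adjusted p = 0.0398).

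**Figure D2:**
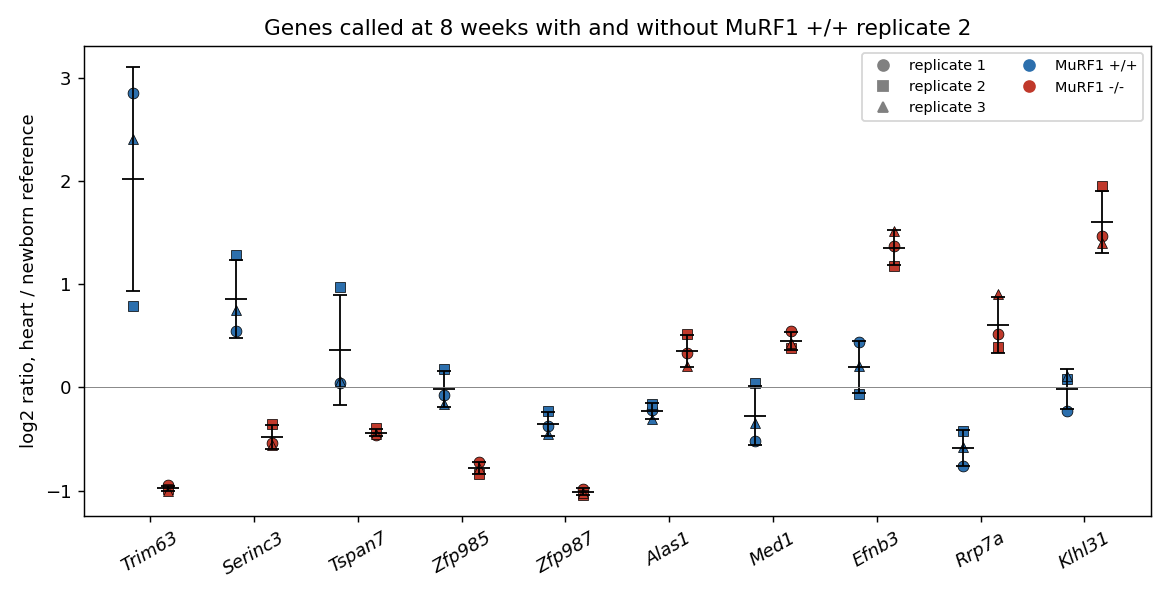
The y axis is the log2 ratio of heart over newborn reference in each of the 6 hearts, for 10 genes called with and without MuRF1 +/+ replicate 2. Blue symbols are MuRF1 +/+, red symbols MuRF1 -/-, the symbol shape is the replicate, and bars are mean ± SD of 3 hearts; the genotypes do not overlap in any of the 10 genes.

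Trim63 lies on chromosome 4, and 8 of the 47 called genes with a chromosome, Trim63 included, were there (17.0%, against 6.26% of the tested genes). Within 150 tested genes on either side of Trim63, 5 of 300 neighbours were called (1.67%), against 2 of 476 on the rest of the chromosome (0.420%) and 39 of 11642 on other chromosomes (0.335%). The 2 on the rest of the chromosome were just past the window, H6pd at 152 and Tmem53 at -177 tested genes from Trim63. The contrast therefore depends on where the window ends. All 5 called neighbours within it lay on 1 side, and the 4 described here lay 109 to 115 tested genes after Trim63. Zfp985, a zinc finger gene of this stretch, was at -0.72, -0.84 and -0.78 in MuRF1 -/- and at -0.07, 0.18 and -0.16 in MuRF1 +/+ hearts. It fell by 0.76 ± 0.10 (SE, n = 3 and 3, adjusted p = 0.00491), with no overlap between the groups. Its neighbour Zfp987 was at -0.98, -1.04 and -1.02 against -0.37, -0.23 and -0.45, and fell by 0.66 ± 0.10 (adjusted p = 0.00656). Another zinc finger gene of the stretch, Zfp933, was well above background on all 3 MuRF1 +/+ arrays at 8 weeks and on 0 of the 3 MuRF1 -/- arrays. Its log2 ratio was called lower in MuRF1 -/- hearts (adjusted p = 0.0413), while a second Zfp933 probe differed by -0.05 (adjusted p = 0.638). The heart signal of the brighter probe was at least 1.52-fold lower in MuRF1 -/- hearts, a bound that was not itself tested. That bound sets the mean of the bright group against the higher of the dimmest signal well above background and the probe's own signal, array by array. Nearest to Trim63 of the 4 was Znf41-ps, a zinc finger pseudogene with a difference of 0.92 ± 0.19 (adjusted p = 0.0490) by its brightest probe, while its 3 other probes gave -0.78, -0.58 and -0.35. Its direction is therefore not settled, and with the mean over its probes the difference was -0.20. Sequence differences carried along with the targeted allele were not tested.

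**Figure D3:**
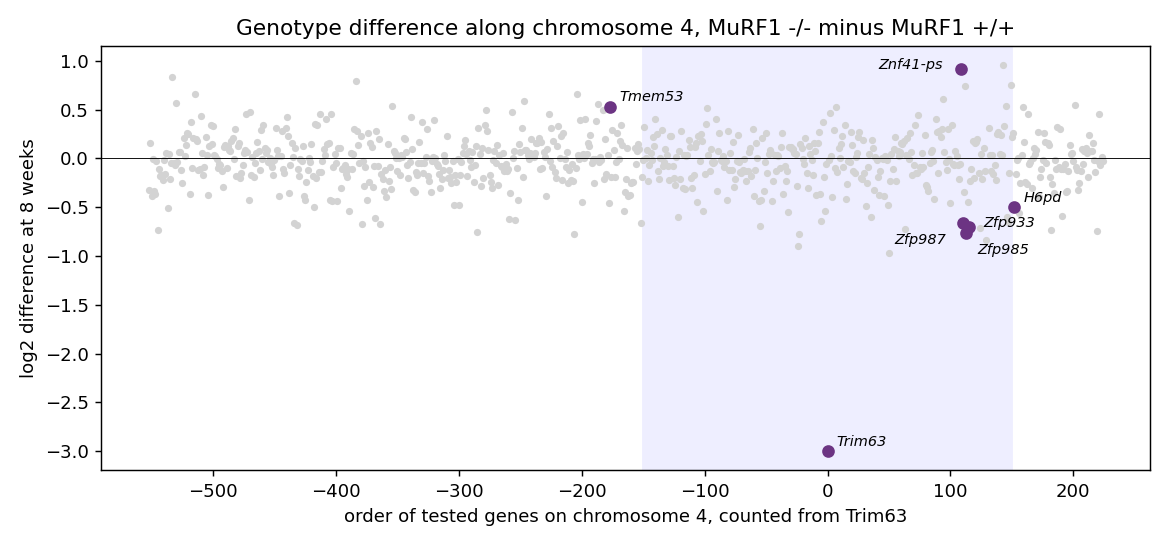
The x axis is the order of tested genes on chromosome 4 counted from Trim63, and the y axis is the 8-week log2 difference MuRF1 -/- minus MuRF1 +/+ of each gene drawn. Purple points are called genes, grey points are not called, and the shaded band holds the 150 tested genes on each side of Trim63; the 4 called neighbours drawn lie 109 to 115 genes to the right.

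Among the remaining calls, none of which passed without MuRF1 +/+ replicate 2, Mgp and Fbln1 were among the falls. Mgp, the matrix Gla protein that restrains calcification, was at -0.23, 0.17 and -0.27 in MuRF1 -/- and at 0.83, 1.96 and 0.85 in MuRF1 +/+ hearts. It fell by 1.32 ± 0.24 (SE, n = 3 and 3, adjusted p = 0.0398) and differed by -0.95 without that heart (adjusted p = 0.0641). Fbln1, the matrix glycoprotein fibulin-1, was at -0.20, 0.15 and -0.61 against 0.80, 1.64 and 0.99 and fell by 1.36 ± 0.26 (adjusted p = 0.0413). Its second probe agreed in sign and size, at -1.32 (adjusted p = 0.0509). Ifngr1, a chain of the interferon gamma receptor, fell by 0.91, and Mtss1, which binds actin and curved membrane, fell by 0.91 (adjusted p = 0.0490 for both). Other Mtss1 probes differed by -0.40 and -0.21 (adjusted p = 0.151 and 0.274). In each of Mgp, Fbln1 and Ifngr1 the highest value was that of MuRF1 +/+ replicate 2, the heart that also had the highest endothelial markers.

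Rprd1b, which binds the tail of RNA polymerase II, was at -0.93, -1.05 and -1.15 in MuRF1 -/- and at 0.07, 0.66 and 0.31 in MuRF1 +/+ hearts. It fell by 1.39 ± 0.28 (SE, n = 3 and 3, adjusted p = 0.0490), although its second probe gave -0.14 (adjusted p = 0.354). Rprd1b and Serinc3 both lie on chromosome 2, with 26 tested genes between them. Gadd45gip1, a component of the mitochondrial ribosome, was at 0.24, 0.09 and 0.16 against 0.54, 1.31 and 1.27, a fall of 0.88 ± 0.18 (adjusted p = 0.0490). Its second probe had the opposite sign, at 0.12. Of the 21 called genes with another measured probe, 3 had a probe of opposite sign, namely Gadd45gip1, Smyd2 and Znf41-ps.

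Other rises lost their call without MuRF1 +/+ replicate 2. Gbe1, the glycogen branching enzyme, was at 0.63, 0.69 and 0.58 in MuRF1 -/- and at 0.21, -0.54 and -0.07 in MuRF1 +/+ hearts, 0.77 ± 0.15 higher (SE, n = 3 and 3, adjusted p = 0.0413). Tmod4, a tropomodulin that caps the pointed ends of thin filaments, was at 0.52, 0.32 and 0.69 against -0.10, -0.64 and -0.07 and rose by 0.78 ± 0.16 (adjusted p = 0.0490). Both rises were smaller without MuRF1 +/+ replicate 2, at 0.56 and 0.59. The transcripts 2610036A22Rik, NAP028872-1 and NAP102495-1 rose by 0.80, 0.81 and 0.88, and in each of them MuRF1 +/+ replicate 3 was the highest MuRF1 +/+ heart. This was also so for the brightest probe of Znf41-ps. These transcripts were called at 3 weeks too, at 0.78, 0.78 and 0.87, as was Znf41-ps at 0.81. Whether their probes measure separate transcripts was not tested.

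Further called genes, named here after their values were seen, include several enzymes. Those of this paragraph had adjusted p-values of 0.0324 to 0.0490 (limma), and none passed without MuRF1 +/+ replicate 2. Among those that rose, Gpt, an alanine aminotransferase, did so by 0.72, Chkb, a choline kinase, by 0.54, and Pecr, a peroxisomal enoyl-CoA reductase, by 0.48. Herpud1, a membrane protein of endoplasmic reticulum protein breakdown, rose by 0.73. The cell cycle regulator Gmnn rose by 0.62 and the kinase gene Mapk10, which encodes JNK3, by 0.59. The methyltransferase gene Smyd2 rose by 0.51 and the histone demethylase gene Kdm4b by 0.34. Among those that fell, H6pd, the hexose-6-phosphate dehydrogenase of the endoplasmic reticulum, did so by 0.50, Adh1, an alcohol dehydrogenase, by 0.74, and Lyl1, a transcription factor of blood and endothelial cells, by 0.60. The ribosomal protein gene Rpl34 fell by 0.53. Second probes gave 0.56 for Chkb and -0.58 for Adh1. They gave smaller differences for Mapk10 (0.21), H6pd (-0.12) and Rpl34 (-0.26), and the opposite sign for Smyd2 (-0.32).

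The same 52 genes were then set beside the genotype differences on the other diets, which share no hearts with the 8-week comparison. On chow 13 genes were called (0.0892% of those tested), 5 higher (0.0343%) and 8 lower (0.0549%). At 3 weeks 59 were called (0.405%), 53 higher (0.364%) and 6 lower (0.0412%). With chow the 8-week comparison shared 4 called genes, 7.69% of the 8-week calls and 30.8% of the chow calls, namely Trim63, Klhl31, Med1 and Gadd45gip1. With 3 weeks it shared 8, which is 15.4% of the 8-week calls and 13.6% of the 3-week calls. These were Trim63, Klhl31, Med1, Zfp933, Znf41-ps, 2610036A22Rik, NAP028872-1 and NAP102495-1. Trim63, Klhl31 and Med1 were called on all 3 diets. The 52 genes had a median absolute difference of 0.72 at 8 weeks, where they were chosen, against 0.15 on chow and 0.09 at 3 weeks. Of them, 29 had the same sign on chow and 26 at 3 weeks.

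Klhl31 differed by 2.29 on chow, 1.35 at 3 weeks and 1.62 at 8 weeks, and Med1 by 1.02, 0.97 and 0.72. Zfp985 differed by -0.43 on chow (adjusted p = 0.379), -0.15 at 3 weeks and -0.76 at 8 weeks, and Zfp987 by -0.37, -0.01 and -0.66. Serinc3 differed by -0.49, -0.37 and -1.34 and Rrp7a by 0.35, -0.07 and 1.19. None of the differences of these genes between 8 weeks and another diet passed the test.

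Whether the genotype difference itself changed with diet was tested across all genes. Between 8 weeks and chow 0 of 14572 genes passed in limma (0%), although 2520 had an unadjusted p under 0.05. Between 8 and 3 weeks 1 gene passed (0.00686%), and it was Efnb3. Its genotype difference was 1.16 at 8 weeks, -0.37 on chow and -0.47 at 3 weeks, a change from 3 to 8 weeks of 1.63 ± 0.24 (SE, adjusted p = 0.0401). That call was lost with slide as a block, with the Y-linked covariate, without a trend in the prior variance and without MuRF1 -/- replicate 1 or replicate 3, where 0 genes passed in limma. The 8-week difference itself kept its call in 15 of 23 alternatives. It missed the threshold with slide as a block (1.16, adjusted p = 0.0574) and with the Y-linked covariate (adjusted p = 0.251). The call was also lost with only the 2 groups in the fit and without MuRF1 -/- replicate 1 or replicate 3. Without both hearts with Y-linked transcripts the difference was 0.98. The chow-fed MuRF1 +/+ hearts averaged 1.5 ± 0.02 for this gene (SD, n = 3), the 3-week ones 0.92 ± 0.10 (SD, n = 4) and the 8-week ones 0.20 ± 0.25 (SD, n = 3). For MuRF1 -/- the corresponding means, over as many hearts, were 1.13 ± 0.45, 0.45 ± 0.27 and 1.36 ± 0.17. Across these diets Y-linked signal differed too: Ddx3y and Eif2s3y were both above background in all 6 chow hearts, in 0 of the 7 MuRF1 +/+ hearts on fenofibrate and in 2 of the 3 MuRF1 -/- hearts at 8 weeks. No MuRF1 -/- heart at 3 weeks had both above background. From 3 to 8 weeks mean Ddx3y went from -0.81 to 0.70 in MuRF1 -/- and from -0.70 to -0.60 in MuRF1 +/+ hearts. Mean Xist went from 0.01 to -3.43 and from -0.29 to -1.88. The part of Y-linked signal in these Efnb3 levels was not tested. The change in genotype difference from chow, 1.53 ± 0.26, did not pass (adjusted p = 0.0699).

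**Figure D4:**
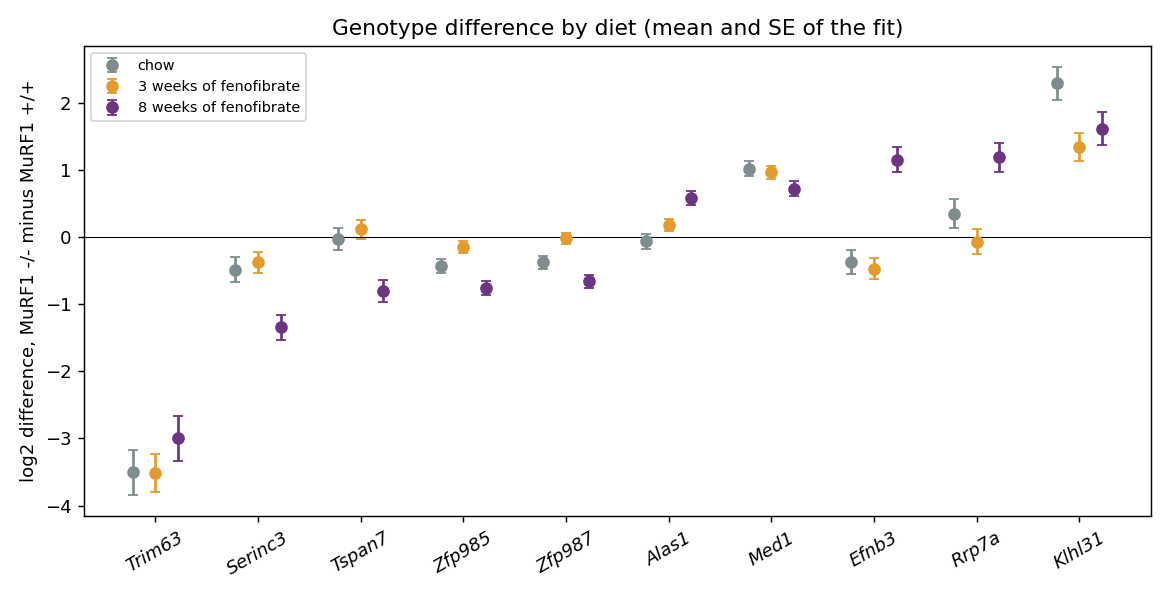
The y axis is the log2 difference MuRF1 -/- minus MuRF1 +/+ with its SE from the fit, for 10 genes called at 8 weeks with and without MuRF1 +/+ replicate 2, on chow (grey, 3 and 3 hearts), at 3 weeks (orange, 4 and 4) and at 8 weeks of fenofibrate (purple, 3 and 3). Trim63, Klhl31 and Med1 lie on the same side of 0 on all 3 diets, and Efnb3 is above 0 only at 8 weeks.

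Of 32 measured targets of PPAR alpha, the drug's receptor, 0 passed in limma and 8 had an unadjusted p under 0.05. Over all tested genes 52 of 14572 passed (0.357%) and 3247 had such a p, so the list's counts are near the background. Its median difference was 0.10, against -0.03 over all tested genes. The median was -0.20 within one shared slide and 0.12 within the other, and it was 0.37 in Agilent's ratios, 0.41 in the series matrix and 0.25 with the heart channel alone. Etfdh, which passes electrons from fatty acid oxidation to the respiratory chain, read 2.17, 2.44 and 2.72 in MuRF1 -/- hearts and 0.95 and 1.83 in MuRF1 +/+ replicates 2 and 3, its value in replicate 1 being missing. Its difference was 1.05 ± 0.22 (adjusted p = 0.0509), and 0.61 without replicate 2. Plin5, a lipid droplet coat protein, read 2.36, 3.04 and 2.59 against 2.29, 1.38 and 2.28, a difference of 0.68 ± 0.21 (adjusted p = 0.0979).

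The lists of energy metabolism held no call, while Gbe1, Gpt, Pecr and H6pd, which are in none of them, were called. In the tricarboxylic acid cycle list 0 of 19 measured genes passed. Of these 19, 9 had an unadjusted p under 0.05, against 3247 of all 14572 tested genes, and 18 had a positive difference. The median was 0.53, and it was 0.20 without MuRF1 +/+ replicate 2, with -0.05 in one shared slide and 0.38 in the other. Sdha, the flavoprotein of succinate dehydrogenase, read 1.24, 1.51 and 1.48 against 1.44, -1.12 and 1.10, with replicate 2 far below the other hearts. Of 54 respiratory chain and ATP synthase genes 0 passed, and their median was -0.15, which turned to 0.09 in Agilent's own ratios, 0.17 in the series matrix and 0.13 with the heart channel alone. Of 29 genes of glucose uptake and glycolysis 0 passed, with a median of 0.18.

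The lists of sarcomere, hypertrophy, calcium handling, and proteasome and autophagy genes held 0 calls in limma. An unadjusted p under 0.05 was found in 6, 6, 8 and 8 of their 29, 27, 27 and 33 measured members, against 3247 of all 14572 tested genes. Tmod4 and Herpud1, called above, are in none of these lists. The 29 sarcomere, Z-disc and M-band genes, where MuRF1 protein resides, had a median of 0.02. Actc1, cardiac alpha-actin, read 1.65, 0.89 and 1.58 in MuRF1 -/- against 0.56, 0.40 and 0.35 in MuRF1 +/+ hearts, a difference of 0.94 ± 0.20 (adjusted p = 0.0521). The 33 proteasome and autophagy genes had a median of 0.08, and their lysosomal protease Ctsl read -1.30, -0.89 and -1.25 against -0.12, -0.66 and -0.79, a difference of -0.62 ± 0.14 (adjusted p = 0.0569). The 27 genes of hypertrophy and the fetal programme had a median of 0.01. Among them Ccn2, a secreted matrix regulator, read -0.31, 0.91 and 0.81 against 2.24, 0.10 and 2.68 and did not pass (-1.20, adjusted p = 0.146). Without MuRF1 +/+ replicate 2 its difference was -1.99, which passed (adjusted p = 0.0106). The 27 genes of calcium handling and conduction had a median of 0.28 and 0.13 without that heart.

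The marker lists of endothelium, matrix and fibroblasts, smooth muscle and pericytes, and leukocytes had negative medians, whereas the erythrocyte list had a positive one. Of these negative medians, all but that of the leukocyte genes were nearer 0 without MuRF1 +/+ replicate 2. All 23 endothelial markers were measured and 0 passed. An unadjusted p under 0.05 was found in 17 of them, against 3247 of all 14572 tested genes. All 23 markers had a negative difference, with a median of -0.58. Their mean level was 0.43, 0.53 and 0.47 in the MuRF1 -/- hearts and 0.70, 1.91 and 0.77 in the MuRF1 +/+ hearts, so replicate 2 was far above the rest. Without it the median was -0.19, and within the shared slides it was -0.32 and -0.33. Cdh5, the cadherin of endothelial junctions, read 0.12, 0.45 and 0.15 against 0.72, 2.65 and 1.18 (difference -1.28 ± 0.32, adjusted p = 0.0692). In whole hearts, fewer cells of a type and less RNA per cell cannot be told apart. Of 28 measured matrix and fibroblast genes 1 passed, Mgp, while the called matrix gene Fbln1 is not in the list, and the median was -0.41, or -0.23 without replicate 2. The list means were -2.03, -2.08 and -2.11 in MuRF1 -/- hearts and -1.89, -1.19 and -1.75 in MuRF1 +/+ hearts. Col4a1, a basement membrane collagen, read -2.52, -2.44 and -2.54 against -1.65, -1.06 and -2.06, a difference of -0.91 ± 0.21 (adjusted p = 0.0610). The 17 smooth muscle and pericyte genes had a median of -0.34 (-0.12 without replicate 2) and the 25 leukocyte genes one of -0.22 (-0.23 without it), with 0 passing in either. The part that the makeup of the hearts has in the falls of Mgp and Fbln1 was not tested.

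Over all 14572 tested genes, 3247 had an unadjusted p under 0.05. Of 40 measured cytosolic ribosomal protein genes in the list, which does not hold the called Rpl34, 0 passed in limma, 35 had such a p, and 1 had a positive difference. Their mean was -0.95, -0.90 and -1.03 in MuRF1 -/- and -0.84, -0.20 and -0.45 in MuRF1 +/+ hearts. The median difference was -0.45, and -0.30 without replicate 2, while the shared slides gave -0.10 and -0.62. It depended on the scaling, at -0.10 in Agilent's ratios, -0.03 in the series matrix and -0.10 with the heart channel alone. Lists for interferon response (28 measured, median -0.24), immediate early and heat shock genes (22, -0.16), cell cycle (20, -0.27) and the circadian clock (14, 0.04) had 0 calls each. So did the lists for adipocytes (17 measured, median -0.33), atrial muscle (9, -0.16), neurons and Schwann cells (9, -0.22), skeletal muscle (11, -0.26), mesothelium (8, -0.24) and erythrocytes (4, 0.15). Of the 3 measured Y-linked genes and the 7 of X inactivation and escape, 0 passed.

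**Figure D5:**
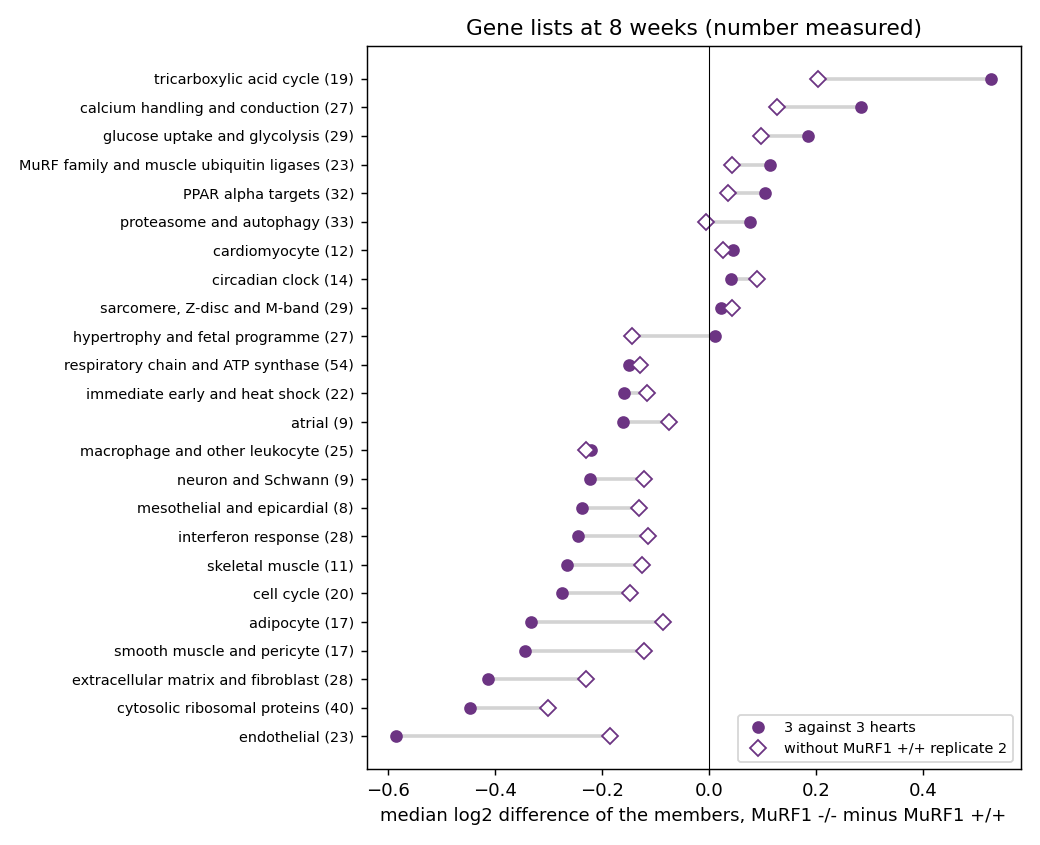
The x axis is the median log2 difference MuRF1 -/- minus MuRF1 +/+ at 8 weeks over the members of each gene list with 8 or more measured genes, with the number measured in brackets. Filled circles use 3 against 3 hearts and open diamonds leave out MuRF1 +/+ replicate 2; the endothelial median moves from -0.58 to -0.19 and that of the tricarboxylic acid cycle from 0.53 to 0.20.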

How the data were processed

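The deposited scanner files hold spot intensity without normalization (Agilent Feature Extraction 9.5.3.1, array design 014868, per the file headers), with Agilent's log10 ratio of both channels and spot flags. Log2 values of the same arrays are in the authors' deposited matrix, and how they were made is not stated in the labels or headers. A comparison with Agilent's ratio showed log2 of Cy5 over Cy3, with column medians from -0.0060 to 0.0091. The channel labels name Cy5 for heart RNA, and the protocol text names Cy3. The channel labels were followed.

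Intensities were corrected with normexp (offset 50) and then loess-normalized array by array (limma 3.58.1, R version 4.3.3, data.table package version 1.17.8). Control spots and outlier spots (105 to 423 per array) were left out, and 6 spots with background over 50 above their signal, all on 1 chow array, were left out of the correction. Spots of a probe were averaged (43379 spots, 41174 probes). Names came from RefSeq tables of GRCm38.p6, 22951 probes by accession, 6659 by current symbol and 3109 by synonym, while 8455 kept the name in the files. A gene took its probe with the brightest heart signal and was tested if well above background on at least 3 of 20 arrays, which left 14572 genes. On the 8-week arrays 34.0% to 43.0% of heart probes were above background with 0 saturated heart spots. Precision is limited by the number of arrays.

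All 20 arrays entered 1 limma model of the 6 group means (trended prior variance), and p-values were adjusted by Benjamini-Hochberg over all tested genes at 0.05. The labels call the hearts biological replicates. Slides were told apart by their scan, since 4 headers name another slide than the other records. The fit was also run on simulated data, drawn with independent hearts and the same spread in all groups. That run cannot speak to the heart that stood apart or to the unequal spread of the groups. Named genes are the MuRF family, sex-linked lists, the 10 largest calls in each direction, up to 5 calls per gene list or else its largest differences, called neighbours of Trim63, the lowest p of each change with diet, and calls shared by all diets. The comparison, lists and alternatives were chosen with earlier results of these data known. Some genes that the naming rule selects are not reported here.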

Additional observations from a re-analysis of the deposited data

Results flagged for a closer look

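Efnb3 stands out because its genotype difference was not the same after 8 and after 3 weeks of fenofibrate. The difference of the 2 genotype effects was 1.63 ± 0.24 (SE, limma adjusted p = 0.0401, with 3 and 3 hearts at 8 weeks and 4 and 4 at 3 weeks). At 8 weeks all 3 MuRF1 -/- hearts were above all 3 MuRF1 +/+ hearts. The call was lost with slide as a block, with the Y-linked covariate, without a trend in the prior variance and without MuRF1 -/- replicate 1 or replicate 3, where 0 genes passed in limma.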

How the results depend on the processing

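The count of genes called at 8 weeks, 52, moved with nearly every alternative. It was 14 with normexp on all spots, 109 with Agilent's log ratio, 7 with the series matrix, 107 with the heart channel alone, 14 with no filter on dim probes, 27 with the mean over probes, 1 with only the groups compared, 8 with slide as a block, 2 with Y-linked signal as covariate, 2548 with array weights, 22 with no trend in the prior variance and 0 without the 2 hearts with Y-linked transcripts (limma). Leaving out single 8-week hearts gave 4 to 3189. Chosen after seeing the data, the fit without MuRF1 +/+ replicate 2 gave 8 with only the groups compared and 16 with slide as a block. Trim63 kept its sign in all 23 alternatives, from -4.91 to -1.63, and lost its call with only the groups compared (-3.0) and without the 2 hearts with Y-linked transcripts (-3.0). Znf41-ps turned to -0.20 with the mean over probes.

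The main fit did not pair hearts by replicate number. Deviations of same-numbered 8-week hearts correlated at -0.382, -0.042 and -0.102. With 3 hearts per group and MuRF1 +/+ replicate 2 standing apart, these values can neither show nor exclude a pairing. With the replicate block there were 10 calls at 8 weeks and 2 for the change from 3 to 8 weeks.

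The chow count, 13, was 8 with the heart channel alone and 51 with array weights. The 3-week count, 59, was 17 with normexp on all spots, 11 with Agilent's ratio, 9 with the series matrix, 37 with no filter, 14 with the strict filter, 7 with only the groups compared (also without MuRF1 +/+ replicate 2), 12 with slide as a block and 129 with that block and without the replicate, 307 with array weights, 197 without the 2 arrays that stand apart, 22 without the 2 Y-positive hearts and 32 to 98 without single 8-week hearts. The change from chow, 0, was 5 with normexp on all spots, 6 with the series matrix, 2 with the heart channel, 2 with no filter, 1 with only the groups compared (1 without the replicate too), 2026 with array weights, 11 without the 2 arrays that stand apart and 0 to 1604 without single hearts. The change from 3 weeks, 1, was 3 with the heart channel, 4 with no filter, 3 with the mean over probes, 2 with only the groups compared and 4 without the replicate too, 0 with slide as a block and 2 without the replicate too, 0 with the Y-linked covariate, 996 with array weights, 0 with no trend, 30 without the 2 arrays that stand apart, 0 without the 2 Y-positive hearts and 0 to 1980 without single hearts. The causes were not tested. Signal near background and 3 hearts per group limit what could be called.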

Other observations

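ENSMUST00000066907, which has no gene name in the tables used here, was the only gene called when just the 6 hearts of the comparison were fitted. It stood at 0.14, 0.03 and 0.12 in MuRF1 -/- and at -1.36, -1.26 and -1.28 in MuRF1 +/+ hearts, a difference of 1.39 (limma adjusted p = 0.00657 in that fit). With all 20 arrays in the fit it did not pass (adjusted p = 0.0569). Its difference was -0.13 on chow and 1.08 at 3 weeks, neither of which passed.

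Without MuRF1 +/+ replicate 2, 8 genes passed that had not passed before, all of them lower in MuRF1 -/- hearts. They included Ccn2 at -1.99, Abhd1 at -2.57, Slc40a1, the cellular iron exporter, at -0.68 and Bnip3, a mitochondrial cell death and mitophagy protein, at -1.18. With all hearts in the fit they differed by -1.20, -1.76, -0.37 and -0.53 (limma adjusted p = 0.146, 0.0890, 0.234 and 0.385), and the groups overlapped. The heart left out was the lowest MuRF1 +/+ heart in each. For Slc40a1 and Bnip3 it was below every MuRF1 -/- heart. These genes were named after their values were seen.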
